A study of Mus musculus with 10 samples.

Results

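Insulin and IGF signaling upstream of mTORC1 was examined in 10 genes, namely the receptor genes Insr and Igf1r, the adaptor genes Irs1, Irs2 and Grb10, the ligand gene Igf1, and the IGF-binding protein genes Igfbp1, Igfbp3, Igfbp4 and Igfbp5. They were chosen by name for their place in the pathway. All 10 were among the 13837 genes of the kidney table, and all 10 were among the 13197 genes that passed the filter on low values and were tested. The knock-in mice carried the S74N substitution in RagC, a Rag GTPase that recruits mTORC1 to the lysosome when nutrients are present, and the comparison asked how these genes stood in heterozygous knock-in kidneys.

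Whole kidneys of 3-month-old mice were profiled, 5 of genotype RagC S74N (+/+), called +/+ here, and 5 of genotype RagC S74N (KI/+), called KI/+. The knock-in was made by CRISPR editing of blastocysts followed by selection of a clone, so the edited Rragc allele is present in every cell of the body rather than driven by a tissue promoter, and all mice were on a C57BL/6 background with standard chow. The labels give neither sex nor feeding state for these kidneys. Each mouse gave 1 library of RNA 3′ ends, and the mouse numbers used here follow the order of the records and pair no animals.

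Insulin and the IGFs bind receptor tyrosine kinases, Insr and Igf1r, which phosphorylate the docking proteins Irs1 and Irs2. These recruit PI3K, and AKT then restrains both the TSC complex, the brake on Rheb and mTORC1, and the FoxO transcription factors. Active mTORC1 and S6K feed back on the pathway by lowering IRS proteins and by stabilizing Grb10, an adaptor that inhibits both receptors, while IGF-binding proteins and the proteases that cleave them set how much free IGF reaches the receptors.

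Libraries held 6501552 to 7996087 reads on genes. The table gives reads divided by a size factor per library, called normalized counts, and 1 read was worth 0.889 to 1.13 normalized counts. Rragc itself was measured at 285 ± 42.3 in +/+ and 216 ± 23.6 in KI/+ kidneys (mean ± SD, n = 5 each), which differed by -0.40 ± 0.12 (SE) on the log2 scale (adjusted p 0.0678 with limma and 0.0312 with DESeq2). DESeq2 was the 1 of 22 alternatives in which Rragc passed, and the adjusted p reached 0.209 among them. The edited bases lie far from the 3′ end that is read, so this level does not check the genotype. All 6 markers of the proximal tubule were in the table, and those of the adrenal cortex were not analysed here. All 4 markers of the distal convoluted tubule fell in KI/+ kidneys. In the thick ascending limb Umod and Kcnj1 fell, Cldn16 rose and Slc12a1 was not called (log2 fold change -0.22), and in the proximal tubule Slc5a2 and Slc5a12 fell while Slc22a6 rose. Atp6v0d2 and Slc4a1 of intercalated cells fell, and Hsd11b2 of principal cells, Synpo of podocytes and Alb of hepatocytes rose. The endothelial, stromal and macrophage lists and Fabp4, the adipocyte marker in the table, had 0 called. In a bulk sample, fewer cells of a type and less RNA per cell cannot be told apart. KI/+ mouse 5 stood apart from the other 9 mice in some of the marker lists. In this mouse 4 of 6 stromal, 3 of 6 macrophage and 4 of 5 principal cell markers were at their highest. The same held for Fabp4 and the hepatocyte marker Ttr. Over all genes it did not stand apart. The share of genes at their highest was 13.3% in KI/+ mouse 5, 14.7% in +/+ mouse 3 and 6.27% to 11.8% in the other mice. The remaining macrophage markers did not rise with the 3 that were highest in KI/+ mouse 5. In this mouse Csf1r was at 774 normalized counts, below the +/+ range of 821 to 1097. Cd68 was at 21.4, below the +/+ range of 24.9 to 37.4, and C1qa lay inside its +/+ range. Results that rest on KI/+ mouse 5 are given with and without it. The library codes fell into 2 runs, 38 to 40 with 2 +/+ mice and 1 KI/+ mouse, and 53 to 66 with 3 +/+ and 4 KI/+ mice. What the runs stand for is not stated.

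The promoters of Igfbp1, Irs2 and Irs1 are shown because they are the member windows that hold letters of an insulin response motif, 2 of them with an E-box as well. Capitals mark the insulin response motif CAAAACA, which FoxO factors can bind, on either strand (TGTTTTG is its reverse complement), and the E-box CACGTG, which TFEB and many other factors can bind. Each run gives the 240 bases that end 11 bases before the RefSeq start site of the gene on GRCm38.p6, 5′ to 3′ on the strand of the gene.
Igfbp1 (chr11:7197537-7197776, plus strand): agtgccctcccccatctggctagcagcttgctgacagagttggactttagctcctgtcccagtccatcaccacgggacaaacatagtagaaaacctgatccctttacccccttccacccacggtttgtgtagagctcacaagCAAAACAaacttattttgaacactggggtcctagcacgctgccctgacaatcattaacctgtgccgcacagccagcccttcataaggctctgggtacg
Irs2 (chr8:11008940-11009179, minus strand): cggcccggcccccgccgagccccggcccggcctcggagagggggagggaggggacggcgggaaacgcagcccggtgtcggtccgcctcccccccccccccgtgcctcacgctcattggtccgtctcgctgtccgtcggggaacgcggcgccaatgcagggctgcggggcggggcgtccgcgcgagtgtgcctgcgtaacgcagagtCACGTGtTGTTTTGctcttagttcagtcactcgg
Irs1 (chr1:82291450-82291689, minus strand): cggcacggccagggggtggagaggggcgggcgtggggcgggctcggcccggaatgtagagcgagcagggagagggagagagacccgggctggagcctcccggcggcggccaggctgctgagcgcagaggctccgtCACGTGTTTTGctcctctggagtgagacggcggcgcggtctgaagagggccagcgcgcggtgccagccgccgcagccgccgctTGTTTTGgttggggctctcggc
In Igfbp1 the motif lay 108 bases before the start. Irs2 had the E-box at 44 bases and the insulin response letters at 37 bases before the start, almost side by side. In Irs1 the E-box at 115 bases overlapped the insulin response letters at 111 bases, and a second copy lay at 32 bases. CAAAACA was found in 3 of 10 member promoters, which belong to 9 genes because Grb10 has 2, and in 6.28% of the 32851 mouse promoters of the same 300 bases. CACGTG was found in 2 of the 10 and in 7.15% of all. The FoxO motif GTAAACA was in 0 of the 10 and in 3.65% of all, which says only that these letters are not in these windows.

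No member passed the test between genotypes. With limma on log2(normalized count + 1) and an adjusted p under 0.05 over all tested genes, 0 of 10 members were called, beside 3.69% of all genes, of which 1.67% were higher and 2.02% lower in KI/+. The count was also 0 of 10 with edgeR (3.64% of all genes called) and with DESeq2 (4.91%), both on the recovered reads. At an unadjusted p under 0.05, 3 of 10 members passed, Igfbp3, Irs1 and Igf1, beside 15.4% of all genes, and all 3 were lower in KI/+ kidneys. The fitted difference was negative for 8 members and positive for Igfbp1 and Igfbp4, with a median of -0.12 on the log2 scale against 0.00 over all genes. The genotypes overlapped in all 10 members, whereas 5% of all genes did not overlap.

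**Figure D1:**
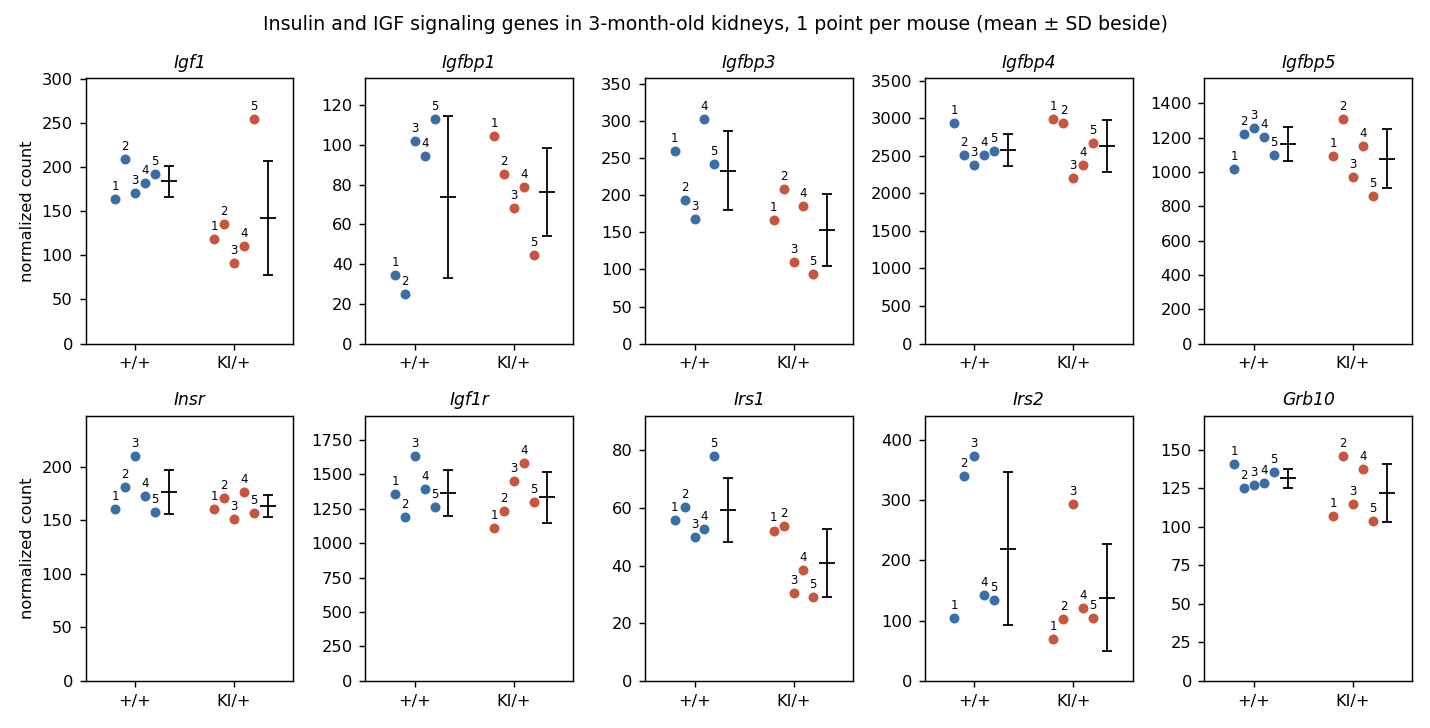
Normalized counts of the 10 insulin and IGF signaling genes (vertical axes, linear, from 0), 1 numbered point per mouse, with +/+ in blue, KI/+ in red and the mean ± SD of 5 mice beside each group. The genotypes overlap in every panel, and single mice stand high for Irs2 (+/+ 2 and 3, KI/+ 3) and Igf1 (KI/+ 5).

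The members spanned a wide range of levels. Since 1 read is counted per 3′ end, normalized counts do not scale with transcript length, and the order is given on that scale. In +/+ kidneys Igfbp4 was the most abundant at 2580 ± 209.5, above Igf1r at 1366 ± 168 and Igfbp5 at 1160 ± 98.7, of which the last pair overlapped between mice. A middle group of Igfbp3, Irs2, Igf1 and Insr followed, with means from 233.5 down to 176 and overlapping neighbours throughout. The mean of Grb10 was lower at 131 ± 6.42, without overlap with Insr but within the range of Irs2, and Igfbp1 at 73.8 ± 40.9 and Irs1 at 59.3 ± 11.1 were the lowest and overlapped. KI/+ kidneys kept the same first 3 and last 3 genes in the order of the means.

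Among the ligand and its carriers, Igf1 was lower in 4 of 5 KI/+ kidneys. Igf1 encodes the main circulating and local growth factor of the axis. It was at 164, 209.9, 171, 182 and 192 normalized counts in +/+ mice 1 to 5 and at 119, 136, 91.4, 111 and 255 in KI/+ mice 1 to 5. KI/+ mice 1 to 4 all lay below the lowest +/+ kidney, and KI/+ mouse 5 lay above the highest. The log2 fold change was -0.46 ± 0.20 (SE), with a 95% interval of -0.88 to -0.04, a limma adjusted p of 0.262 and an exact permutation p of 0.119 (two-sided, n = 5 each). Without KI/+ mouse 5 it was -0.69 with a limma adjusted p of 0.00414, in a fit that called 3.34% of all genes. Over the 22 alternatives the fold change ranged from -0.69 to -0.33, and the adjusted p passed the threshold in that 1 alone.

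The mouse that set Igf1 apart also had high levels of some transcripts of stromal and other cells. In KI/+ mouse 5, Col1a1 was at 729 normalized counts and Dcn at 818, against 224 to 294 and 281 to 489 in the other 9 mice. Pdgfra and Pdgfrb of the stromal list were at 72.0 and 84.7 in this mouse. Both lay inside the +/+ ranges, of 56.9 to 107 and 59.0 to 109. Igfbp2, another IGF-binding protein gene, was at 110.0 there and at 20.9 to 44.5 elsewhere. The summed stromal and mesangial list was 1052 to 1175 in +/+ and 815 to 2112 in KI/+ kidneys, with 0 of its 5 tested markers called. The macrophage list had 0 of 6 called. Markers of other cell types were highest in KI/+ mouse 5 too, with Aqp2 of principal cells at 1425 against 486 to 865. Fabp4 was at 871 against 94.6 to 604, and Ttr, a hepatocyte marker, at 4588 against 711 to 1348. The other hepatocyte markers were not highest there, with Alb at 190 and Apoa1 at 9.73. Serpina1a, at 203, was lowest of all 10 mice there. The part of any of these cells in the Igf1 level was not tested.

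**Figure D2:**
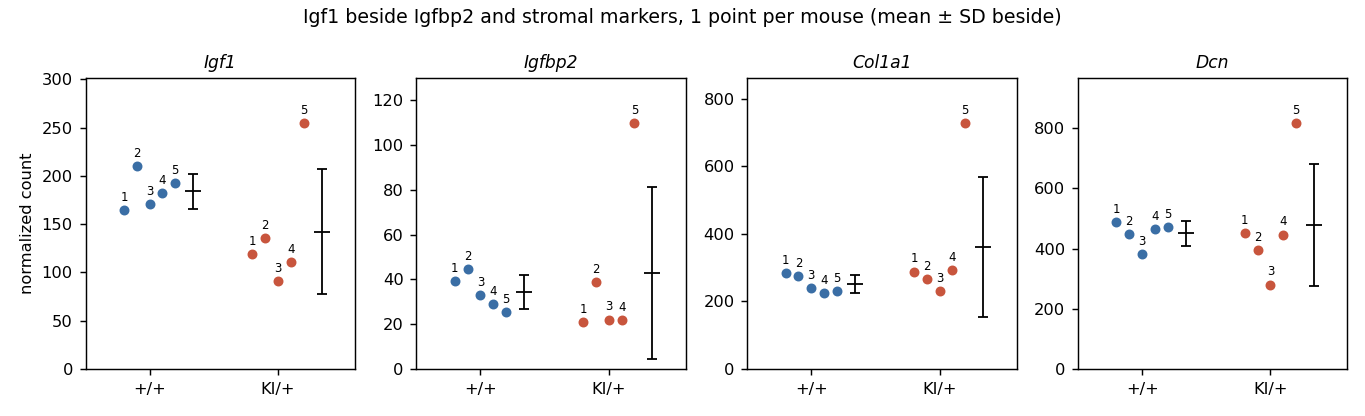
Normalized counts (vertical axes, linear, from 0) of Igf1, Igfbp2 and the stromal markers Col1a1 and Dcn, 1 numbered point per mouse, with +/+ in blue, KI/+ in red and mean ± SD of 5 mice beside each group. KI/+ mouse 5 is the highest kidney in all 4 panels, and the other 4 KI/+ kidneys lie below every +/+ kidney for Igf1 alone.

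Igfbp3, the gene of the carrier of most IGF in the blood, had the smallest p of the members. Its level was 260.2, 194, 168, 303 and 242 normalized counts in +/+ mice 1 to 5 and at 167, 209, 110.3, 186 and 94.4 in KI/+ mice 1 to 5. KI/+ mice 1, 3 and 5 lay below the lowest +/+ kidney, and KI/+ mice 2 and 4 lay inside the +/+ range. On the log2 scale KI/+ differed by -0.64 ± 0.20 (SE), interval -1.06 to -0.21, limma adjusted p 0.102 and exact permutation p 0.0476 (two-sided, n = 5 each). Leaving out KI/+ mouse 2, the highest of its group, gave -0.76 and a limma adjusted p of 0.0456, with 3.26% of all genes called in that fit, and leaving out KI/+ mouse 5, the lowest, gave -0.48 and 0.212. All 6 endothelial markers had negative fold changes with a median of -0.19 and 0 called, and their sum was 2593 to 2924 in +/+ and 2014 to 2985 in KI/+ kidneys, and the part of endothelial RNA in Igfbp3 was not tested. The Igfbp3 difference within codes 53 to 66 was -0.70 (limma adjusted p 0.206), and with the run as a covariate it was -0.62 (0.0998).

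Igfbp1 is a fasting-induced binding protein gene that insulin represses through FoxO, and it lies next to Igfbp3 on chromosome 11. Its level stood at 34.7, 24.9, 102, 94.3 and 113 normalized counts in +/+ mice 1 to 5 and at 104, 85.5, 68.3, 79.1 and 44.8 in KI/+ mice 1 to 5. +/+ mice 1 and 2, both of library codes 38 to 40, were low, and the KI/+ mouse of the same run was about as high as the remaining +/+ kidneys. Over all mice the log2 fold change was 0.23 ± 0.35 (SE), interval -0.51 to 0.97, limma adjusted p 0.825. Within codes 53 to 66 the sign turned, with 94.3 to 113 in 3 +/+ and 44.8 to 85.5 in 4 KI/+ kidneys, no overlap, a log2 fold change of -0.60 ± 0.21 (SE) and a limma adjusted p of 0.167. The exact permutation p there was 0.0571, the smallest that 3 against 4 mice allow. With the run as a covariate it was 0.069 (limma adjusted p 0.936), and without +/+ mouse 2 it was -0.092 (0.922), so the direction was not settled, and run and single mice cannot be told apart with 3 mice in the first run.

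The more abundant carriers showed small differences. Igfbp4, an inhibitory binding protein, was at 2580 ± 209.5 in +/+ and 2635 ± 344 in KI/+ kidneys, with ranges of 2375 to 2932 and 2206 to 2993. Its log2 fold change was 0.02, interval -0.17 to 0.22, limma adjusted p 0.94. Igfbp5, a matrix-bound carrier, was at 1018, 1222, 1258, 1204 and 1101 normalized counts in +/+ mice 1 to 5 and at 1095, 1309, 973, 1149.5 and 861 in KI/+ mice 1 to 5. Its values lay on both sides of the +/+ range in KI/+ mice, and the log2 fold change was -0.12, interval -0.34 to 0.10, limma adjusted p 0.671. Within each kidney, the ratio of Igfbp3 to Igfbp5 had a median of 0.22 in +/+ (0.133 to 0.256) and 0.153 in KI/+ (0.11 to 0.162), which are overlapping ranges. The ratio of Igfbp4 to Igfbp5 was 1.89 to 2.88 and 2.06 to 3.10.

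Both receptor genes differed by less than the spread between mice. Insr, the insulin receptor gene, was at 161, 181, 209.8, 173 and 158 normalized counts in +/+ mice 1 to 5 and at 160.3, 171, 151, 176 and 157 in KI/+ mice 1 to 5. +/+ mouse 3 was the highest, and the rest lay close together in both genotypes. KI/+ differed by a log2 fold change of -0.11 ± 0.11 (SE), interval -0.33 to 0.12, limma adjusted p 0.711. Igf1r, the IGF1 receptor gene, was at 1358, 1188, 1631, 1389 and 1263 normalized counts in +/+ mice 1 to 5 and at 1109, 1231, 1452, 1581 and 1296 in KI/+ mice 1 to 5. The order of mice was mixed between genotypes, and the log2 fold change was -0.04 ± 0.10 (SE), interval -0.26 to 0.18, limma adjusted p 0.914. Igf1r stood well above Insr in each kidney, the ratio of Insr to Igf1r being 0.118 to 0.153 in +/+ and 0.104 to 0.145 in KI/+. As a fold, the intervals reached from 0.793 to 1.09 for Insr and from 0.837 to 1.13 for Igf1r.

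Irs1, a docking protein of both receptors, was the least abundant member and tended low in KI/+ kidneys without passing the adjusted test. It was found at 55.7, 60.5, 49.9, 52.5 and 77.9 normalized counts in +/+ mice 1 to 5 and at 52.2, 53.9, 30.5, 38.5 and 29.2 in KI/+ mice 1 to 5. KI/+ mice 3, 4 and 5 lay below every +/+ kidney, and KI/+ mice 1 and 2 lay among them. This was a log2 fold change of -0.55 ± 0.20 (SE), interval -0.97 to -0.14, limma adjusted p 0.16 and exact permutation p 0.0476 (two-sided, n = 5 each). These values rest on 29 to 73 reads per library, and without KI/+ mouse 5 the fold change was -0.45 (limma adjusted p 0.305). Within codes 53 to 66 the difference was -0.66 (limma adjusted p 0.211), and the adjusted p ranged from 0.0933 to 0.379 over the 22 alternatives, so the call was missed in each.

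Irs2, the docking protein that mediates much of insulin action in the liver, differed more between mice of a genotype than between genotypes. Its level was 105, 341, 373, 143 and 135 normalized counts in +/+ mice 1 to 5 and at 70.2, 102, 294, 122 and 104 in KI/+ mice 1 to 5. +/+ mice 2 and 3 and KI/+ mouse 3 were high, and the other 7 kidneys lay between 70.2 and 143. The coefficient of variation was 57.9% in +/+ and 64.3% in KI/+, against 6.79% and 8.49% from counting alone. Between genotypes the log2 fold change was -0.65 ± 0.35 (SE), interval -1.39 to 0.10, limma adjusted p 0.418 and exact permutation p 0.183 (two-sided, n = 5 each). Leaving out 1 mouse moved it from -0.41 without +/+ mouse 3 (limma adjusted p 0.671) to -0.96 without KI/+ mouse 3 (0.108), and it was -0.44 without +/+ mouse 2 (0.617). Within a kidney the ratio of Irs2 to Irs1 ran from 1.73 to 7.48 in +/+ and from 1.35 to 9.66 in KI/+.

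The 3 kidneys highest in Irs2 were also the 3 highest in Cish, a feedback inhibitor that growth hormone and other cytokines induce through STAT5. Cish was at 83.1, 685, 327, 129 and 111 normalized counts in +/+ mice 1 to 5 and at 84.4, 107, 376, 207 and 40.9 in KI/+ mice 1 to 5. It varied more between mice of a genotype than Irs2 did, with a coefficient of variation of 94.7% in +/+ and 82.1% in KI/+. Bcl6, a transcriptional repressor listed with the FoxO targets, was at 985, 157, 134, 496 and 499.7 normalized counts in +/+ mice 1 to 5 and at 710.4, 770.3, 186, 136 and 650.0 in KI/+ mice 1 to 5. The same 3 kidneys were among its 4 lowest, with KI/+ mouse 4 as the remaining one. Socs2, a further STAT5 target, was high in +/+ mouse 2 only, at 789.7 against 93.8 to 169 in the other 9. These genes were picked after their values were seen, and mice with high Irs2 form so small a group that no correlation is given. The limma adjusted p between genotypes was 0.646 for Cish, 0.42 for Socs2 and 0.927 for Bcl6.

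**Figure D3:**
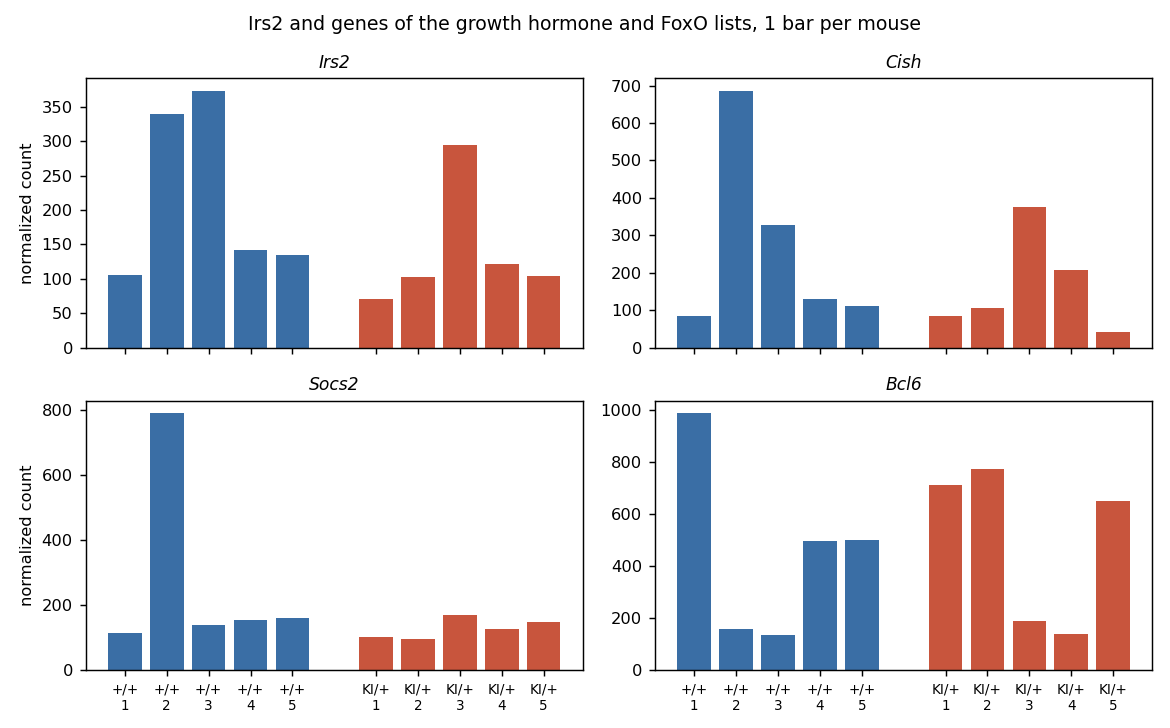
Normalized counts (vertical axes, linear, from 0) of Irs2, Cish, Socs2 and Bcl6, 1 bar per mouse, with +/+ mice 1 to 5 in blue and KI/+ mice 1 to 5 in red. +/+ mice 2 and 3 and KI/+ mouse 3 are highest in Irs2 and in Cish and low in Bcl6, and +/+ mouse 2 alone is high in Socs2.

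Grb10, the adaptor that inhibits both receptors, showed little difference. It stood at 141, 125, 127, 129 and 136 normalized counts in +/+ mice 1 to 5 and at 107, 146, 115, 137 and 104 in KI/+ mice 1 to 5. KI/+ kidneys spread more widely than +/+ kidneys, with 3 below and 1 above the +/+ range. Its log2 fold change was -0.12 ± 0.12 (SE), interval -0.37 to 0.13, with a limma adjusted p of 0.714. Grb10 and the IRS proteins are regulated by mTORC1 in large part as proteins, which 3′ end counts do not measure.

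**Figure D4:**
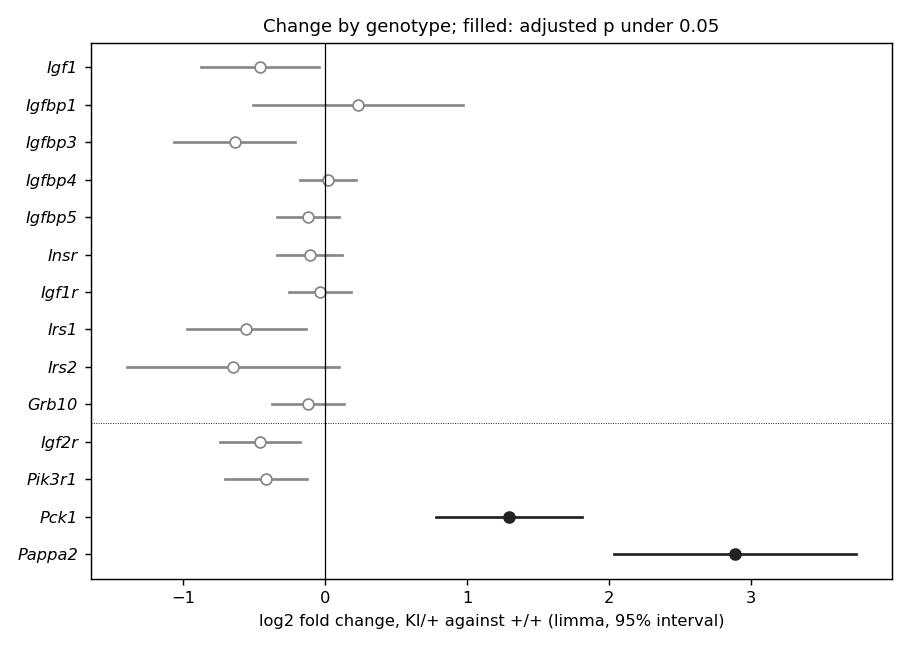
Log2 fold change of KI/+ against +/+ kidneys (horizontal axis) with its limma 95% interval for the 10 members above the dotted line and 4 other pathway genes below it, n = 5 mice each. Filled points have an adjusted p under 0.05. Among the members Igf1, Igfbp3 and Irs1 have intervals that stay below 0 but none is filled, and Pck1 and Pappa2 are filled to the right.

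Around the members, 79 other genes of the pathway had been listed for their roles, of which 68 were in the table and tested. The test called 2 higher in KI/+ (Pck1, and Pappa2, which passed the filter only through the group where it is high) and 0 lower, beside 1.67% and 2.02% of all genes. The median log2 fold change of the 68 was -0.02. The lists of other ligands, receptors and binding proteins (5 tested), adaptors and phosphatases (14), PI3K and AKT signaling (16), TSC, Rheb and S6 kinase (8) and the growth hormone axis (7) each had 0 called. Among the IGFBP proteases and their inhibitors 1 of 4 was called, and among FoxO factors and target genes 1 of 14. Ligand genes Igf2, Ins1 and Ins2 were not analysed here.

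Pappa2 encodes pappalysin 2, a protease that cleaves IGFBP3 and IGFBP5 and so frees IGF1, and it was higher in all KI/+ kidneys. It was at 1.83, 0.889, 2.27, 4.29 and 1.07 normalized counts in +/+ mice 1 to 5 and at 17.1, 14.9, 17.9, 16.8 and 42.8 in KI/+ mice 1 to 5. Every KI/+ kidney lay above every +/+ kidney, where 5% of all tested genes did not overlap in either direction, and KI/+ mouse 5 was well above the other 4. Pappa2 passed the filter only through the KI/+ group and so had to differ to be tested, and its call is given as a description. The log2 fold change on the log2(normalized count + 1) scale was 2.89 ± 0.41 (SE). The kidneys held 10 reads in all in +/+ and 112 in KI/+, and the size-factor-adjusted ratio was 10.9 with a counting interval of 5.70 to 23.3 that covers counting error only. Without KI/+ mouse 5 the log2 fold change was 2.62, and within codes 53 to 66 it was 2.74. Beside it, Umod of the thick ascending limb was at 22917 ± 3438 in +/+ and 11569 ± 2214 in KI/+, and Cldn16 at 125 ± 29.3 and 219 ± 31.3, and the part of that segment in the Pappa2 count was not tested.

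The related genes moved little beside it. Pappa, the protease that cleaves IGFBP4, was at 40.3 ± 3.23 in +/+ and 37.7 ± 13.0 in KI/+ (log2 fold change -0.15, limma adjusted p 0.801). Stc1, an inhibitor of both pappalysins, was at 32.6 ± 7.25 and 42.5 ± 19.4 (0.31, limma adjusted p 0.613), and both it and Pappa were highest in KI/+ mouse 5. Htra1, the most abundant of the list and also a protease of IGF-binding proteins, differed by -0.12 on the log2 scale (limma adjusted p 0.626).

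Pck1, the gene of the cytosolic PEPCK of gluconeogenesis and a FoxO target that insulin represses, rose in KI/+ kidneys. Its level was 2666, 2278, 1372, 2017 and 2150.3 normalized counts in +/+ mice 1 to 5 and at 7956, 7115, 2343, 4484 and 5448 in KI/+ mice 1 to 5. The lowest KI/+ kidney, mouse 3, lay inside the +/+ range, and the other 4 lay above it. That gave a log2 fold change of 1.30 ± 0.25 (SE), interval 0.78 to 1.81, limma adjusted p 0.00412 and exact permutation p 0.0159 (two-sided, n = 5 each). The call was lost with limma without a variance trend (adjusted p 0.0556) and with robust limma (0.0912), and held with the run as a covariate (1.42, 0.000851). KI/+ mouse 3 was also the KI/+ kidney highest in Irs2, a pairing picked after the values were seen. Among +/+ kidneys mouse 3, highest in Irs2 at 373, was lowest in Pck1. Mouse 2, next in Irs2 at 341, had the second highest Pck1 of that group. Pck1 is expressed in the proximal tubule, where Slc5a2 was at 1380 ± 83.3 in +/+ and 731 ± 127 in KI/+ and Slc22a6 at 4524 ± 407 and 6499 ± 497, and the part of these cells in the Pck1 level was not tested. The hepatocyte, a cell type that also makes Pck1, Igfbp1 and Igf1, had 4 markers in the table. Alb was at 58.3 ± 22.5 in +/+ and 271 ± 176 in KI/+ (limma adjusted p 0.00362), 1 of 4 was called and all 4 were positive, with a summed level of 1120 to 1432 and 1856 to 4991, and their part in these genes was not tested. G6pc, the next gluconeogenic gene of the list, was at 3172 ± 939.7 and 3338 ± 451 (0.12, limma adjusted p 0.811), and the test called 0 of the other 13 genes of the FoxO list.

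**Figure D5:**
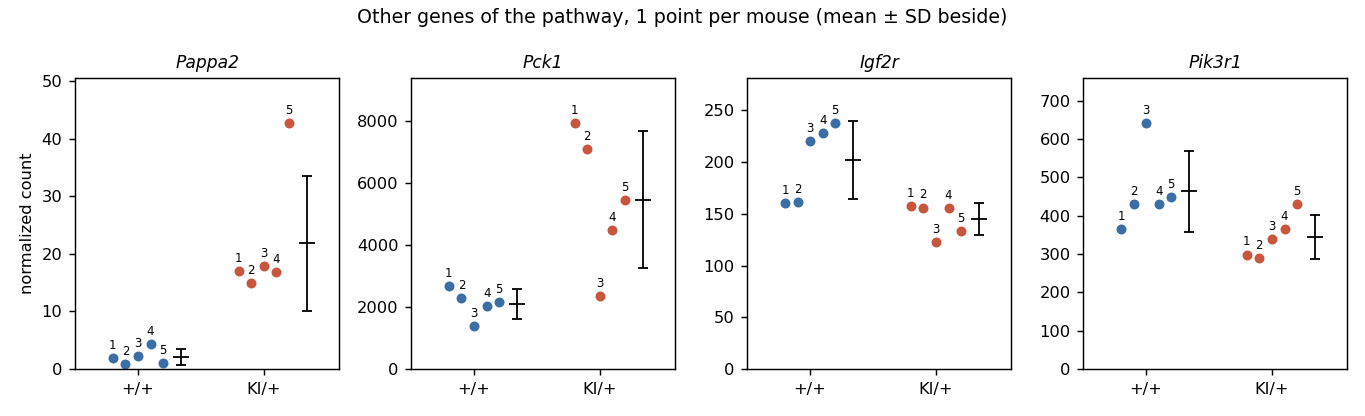
Normalized counts (vertical axes, linear, from 0) of Pappa2, Pck1, Igf2r and Pik3r1, 1 numbered point per mouse, with +/+ in blue, KI/+ in red and mean ± SD of 5 mice beside each group. All KI/+ kidneys lie above all +/+ kidneys for Pappa2 and below them for Igf2r, by a small gap for Igf2r in +/+ mice 1 and 2, and 1 KI/+ kidney overlaps for Pck1.

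Igf2r came close to the threshold and Pik3r1 less so, and both were singled out after their values were seen. Igf2r, the receptor that clears IGF2 and carries lysosomal enzymes, was at 161, 162, 220.0, 228 and 238 normalized counts in +/+ mice 1 to 5 and at 157, 156, 123, 155 and 133 in KI/+ mice 1 to 5. The genotypes did not overlap, which held for 5% of all tested genes and for 2 of the 68 other pathway genes, Igf2r among them. +/+ mice 1 and 2 lay just above the highest KI/+ kidneys. Both were of codes 38 to 40, where +/+ was at 161 and 162 against 157 in KI/+ mouse 1. The difference was -0.46 ± 0.13 (SE), limma adjusted p 0.0666 and exact permutation p 0.00794, the smallest that 5 against 5 mice allow. Within codes 53 to 66 the Igf2r difference was -0.69 (limma adjusted p 0.0116). It passed in 5 of 22 alternatives, DESeq2 among them (adjusted p 0.029). Pik3r1, the regulatory subunit of PI3K that binds IRS proteins, was at 364, 430.4, 643, 429.9 and 449.5 normalized counts in +/+ mice 1 to 5 and at 299, 289, 339, 365 and 431 in KI/+ mice 1 to 5. KI/+ mice 1, 2 and 3 lay below the +/+ range, KI/+ mouse 4 at its lower edge and mouse 5 inside it. The log2 fold change was -0.41 ± 0.14 (SE) with a limma adjusted p of 0.125. With the run as a covariate it was -0.47 (0.0326), the 1 of 22 alternatives in which Pik3r1 passed.

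The remaining steps down to mTORC1 showed small differences in their most abundant genes. Igfbp7, an IGF-binding protein-related gene that is high in endothelium, differed by -0.28 on the log2 scale (limma adjusted p 0.439), Ptprf, a receptor phosphatase, -0.05 (0.837), and Inppl1, the lipid phosphatase SHIP2, -0.02 (0.953). Rps6kb1, the gene of S6K1, had 0.09 (limma adjusted p 0.776) and Ghr, the growth hormone receptor gene, 0.14 (0.623). Of the kinases and the brake between them, Akt1 had -0.04, Akt2 0.05, Tsc1 -0.19 and Rheb -0.04, with limma adjusted p from 0.415 to 0.937. Among the FoxO factors Foxo1 was at 517 ± 21.3 and 519 ± 50.1, and Foxo3 at 353 ± 28.9 and 299 ± 47.1 (log2 fold change -0.25, limma adjusted p 0.273).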

How the data were processed

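Kidney RNA of 10 mice, 5 per genotype as labelled, was analysed. Per the labels and the study's methods, the authors made QuantSeq 3′ libraries, aligned reads with TopHat2 2.0.10 (Bowtie 1.0.0, SAMtools 0.1.19) to GRCm39 and counted them by strand with HTSeq 0.6.1 on GENCODE annotation. Deposited by the authors for 13837 genes was a signal, that is, reads per gene over the size factor of its library, with a lowest gene mean of 5.64. In each library 100% of values came out as whole reads (tolerance 0.01). Of these reads edgeR 4.0.16 called 480 genes and DESeq2 1.42.0 called 648, as alternatives.

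The size factors of the authors were kept. Log2(value + 1) was tested with limma 3.58.1 (R 4.3.3, variance trend, two-sided, Benjamini-Hochberg, threshold 0.05) in the 13197 genes with at least 10 normalized counts in at least 5 mice, after the code was tested on simulated data. Single genes were also compared by exact permutation over all 252 splits (scipy 1.17.1). Each library was taken as 1 mouse. The labels do not state separate animals, but the study gives n = 5 mice of each genotype for these kidneys. The p-values measure the spread between these libraries. Alternatives were other pseudocounts, filters, scalings and tests, the run of library codes, and leaving out each mouse. Promoter sequences were from RefSeq, build GRCm38.p6, and were matched by symbol for 9 of 10 members, while no coordinates on GRCm39 are given. Insr had no entry.

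The members and lists were chosen with earlier results of these data known. Named genes are the 10 members, the called genes of the fixed pathway lists, the most abundant gene of each list, Rragc and markers that stand beside a result. The rule also names genes most like each called member, and as 0 members were called it named none. Other genes are said to be chosen after their values were seen. Those are Igf2r, Pik3r1, Cish, Socs2, Bcl6, Pappa, Stc1, Igfbp2, G6pc, Insrr, Akt1, Akt2, Tsc1, Rheb, Foxo1 and Foxo3.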

Additional observations from a re-analysis of the deposited data

Results flagged for a closer look

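Of 42 groups of 5 mice tested for a sample far from the others, 4 were flagged, and chance flags about 1 in 20 groups. Irs2 was 294 normalized counts in KI/+ mouse 3, the highest of its group, against 70.2 to 122 in the other 4. Igf1 was 255 in KI/+ mouse 5, against 91.4 to 136. Pappa2 was 42.8 in the same mouse, against 14.9 to 17.9. Inppl1 was 544 in KI/+ mouse 2, the lowest of its group, against 564 to 571.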

How the results depend on the processing

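All 22 alternatives kept the median log2 fold change of all genes within 0.01 of 0. The number of genes called was 487, and it was 291 with limma without a trend, 832 with the run of library codes as a covariate and 295 to 466 with 1 mouse left out. Members called were 0, with a range of 0 to 1 on leaving out a mouse, namely Igfbp3 without KI/+ mouse 2 and Igf1 without KI/+ mouse 5. Other pathway genes called were 2. They were 1 with a mean of at least 50, where Pappa2 was not tested, 1 with limma without a trend, 1 with robust limma, 4 with the covariate, where Igf2r and Pik3r1 joined, 3 with DESeq2 and within codes 53 to 66, where Igf2r joined, and 2 to 3 with 1 mouse left out, where Igf2r joined without +/+ mouse 1 or 2. Signs turned in the following genes, and the cause was not tested. Igfbp1 was -0.60 within codes 53 to 66 and -0.092 to 0.44 with 1 mouse left out, the negative end being without +/+ mouse 2. Igfbp4 was -0.027 with quantile normalization and -0.024 to 0.086 with 1 mouse left out, Igf1r -0.10 to 0.029, Rps6kb1 -0.0061 to 0.17, and Inppl1 -0.055 to 0.032, with 0.018 under the covariate and 0.090 within codes 53 to 66. Rragc passed with DESeq2 alone (adjusted p 0.0312). The numbering of mice follows the records, and no paired analysis was possible because the labels give no replicate numbers. Of the members Irs1 had the fewest reads on average, 29 to 73 per library, and Pappa2 had 1 to 44.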

Other observations

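Insrr, the insulin receptor-related receptor, which senses alkali in the kidney, was at 28.0 ± 11.6 normalized counts in +/+ and 38.2 ± 7.16 in KI/+ kidneys (SD, n = 5 each). Its log2 fold change was 0.51, interval -0.02 to 1.04, with a limma adjusted p of 0.357, and 2 of 5 KI/+ kidneys lay above the +/+ range.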
